A study of Homo sapiens with 6 samples.

Results

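Tandem 3' splice sites that lie 3 nt apart were examined in NCI-H1975, an established human lung adenocarcinoma cell line. These are alternative 3' splice site (A3SS) events in which an upstream exon is joined to either of a pair of acceptors separated by a single triplet, so that the mRNA gains or lacks 3 nt. Of the 5692 A3SS events listed, 857 had this distance. Of these, 201 had a mean below 10 junction reads per library, and 16 had count lists whose digits had been regrouped in the table. The remaining 640 events, in 568 genes and at 614 distinct acceptors, are the events described here, out of 78336 events of 5 types in the whole series. The 16 left out were in genes such as GNAS, HNRNPC, PCBP2, RPS16 and ENO1.

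The control cells were transfected with the empty PCDNA3.1 plasmid and the SAM68 cells with PCDNA3.1-SAM68 at 2 µg per well, both with lipofectamine, and RNA was taken after 48 h. The labels give no amount for the empty plasmid. Each group had 3 libraries of the same cell line, and the expression was transient. SAM68, encoded by KHDRBS1, is an RNA-binding protein of the STAR family that takes part in alternative splicing, and the comparison asks whether its overexpression changed the choice between the paired acceptors. Which deposited list belongs to which group was read from the study's own display of inclusion levels, and the labels do not state it.

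The spliceosome cuts an intron at its 3' end behind an AG, which the small subunit of U2AF recognises and which lies downstream of the branch point and a pyrimidine tract bound by the large subunit. When another AG follows at a distance of 3 nt (a NAGNAG acceptor, N being any base), either can be used in the second catalytic step. The form that uses the upstream AG (the long form) carries the second NAG triplet in the exon, and the form that uses the downstream AG (the short form) does not. The base before an AG is known to set its strength, with C and T preferred, A weaker and G weakest. Since both forms keep the reading frame, the proteins usually differ by a single amino acid.

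In the hg38 sequence (GRCh38 coordinates, as in the deposited table), 630 of the 640 events had the NAGNAG form, in 15 hexamers, and 10 had other letters. The deepest acceptor of each common hexamer shows the layout, as 20 bases of intron, the hexamer in capitals and 4 bases of exon, 5′ to 3′ on the strand of the gene. The long form starts at the second triplet in capitals and the short form starts behind it.
FKBP8, chr19:18538430-18538459, minus strand: cctgcctgctcccacccaacTAGCAGgagc
DAZAP1, chr19:1421125-1421154, plus strand: actatccttcccttcttcaaCAGCAGaaag
FLII, chr17:18251810-18251839, minus strand: cagctgtttgcccctcccctAAGCAGggag
SNF8, chr17:48931711-48931740, minus strand: atccccattcctccttccttCAGAAGaatg
DDX3X, chrX:41339013-41339042, plus strand: tatatatatatatattttttTAGAAGggcg
TIMM44, chr19:7934235-7934264, minus strand: ccccctctctgtgtctgtctCAGTAGagcc
SF3B2, chr11:66057243-66057272, plus strand: gatttctttttcccgtctctTAGTAGctgc
H2AFY, chr5:135360601-135360630, minus strand: tctgacccttccgtctgtgcAAGAAGaagc
HIF1A, chr14:61720356-61720385, plus strand: gtgtttttcttgttgttgttAAGTAGgata
For CAGCAG the deepest acceptors were those of SDCBP, which encodes the adaptor protein syntenin, and of BAG6, at means of 825 and 817 reads. DAZAP1, at a mean of 798 reads, is shown in their place.

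The use of the upstream AG was measured as percent spliced in (PSI), the share of the long form among the junction reads of an event after each form was divided by its effective length, averaged over the 3 libraries of a group. Over both groups the median PSI followed the letters. The 251 CAGCAG events had a median of 59.3% (quartiles 29.5% and 83.3%), the 118 TAGCAG events 67.9%, and the 66 AAGCAG events 30.3%. Where the downstream triplet was AAG, the upstream AG prevailed, with medians of 94.6% for 60 CAGAAG events and 95.8% for 34 TAGAAG events. The 26 CAGTAG and 25 TAGTAG events lay between, at 80.3% and 76.8%. The 15 AAGAAG events had a median of 74.2% and the 10 AAGTAG events one of 26.0%. The AAGAAG median was unsteady, at 68.2% with 1 event per acceptor and 63.3% without the first control library. The 12 events whose upstream triplet was GAG had a median of 5.07%, with 2 of the 12 above 50%. Among these, 7 GAGCAG events had a median of 6.44% and 3 GAGAAG events one of 49.4%. The 13 events whose downstream triplet was GAG had a median of 99.3%, with 12 of the 13 above 90%. The medians of the larger classes varied little between libraries, from 58.2% to 60.4% for CAGCAG, from 26.0% to 31.2% for AAGCAG and from 94.4% to 96.0% for CAGAAG. Those of smaller classes varied more, from 73.7% to 86.6% for CAGTAG, from 59.6% to 73.9% for AAGAAG, from 2.27% to 12.5% for GAGCAG and, with 3 events, from 19.8% to 84.8% for GAGAAG. Within a hexamer the acceptors differed far more, and CAGCAG events reached from 0.913% to 99.2%. These values are a description over acceptors, which are not replicates.

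The deepest acceptors gave precise values. FKBP8 encodes a chaperone of the outer mitochondrial membrane, and its acceptor held 66.6%, 66.4% and 67.1% of the long form across the control libraries and 68.4%, 67.3% and 67.5% across the SAM68 libraries, at a mean of 1018 reads. EIF4G1, the scaffold of translation initiation, had 31.6%, 37.98% and 33.4% across the control libraries and 35.2%, 37.1% and 34.6% across the SAM68 libraries. Both transcripts were thus made as a mixture of forms in every library. FLII, an actin-remodelling protein of the gelsolin family, had 55.9%, 50.3% and 51.2% across the control libraries and 46.9%, 53.2% and 55.8% across the SAM68 libraries, with groups that overlap. Another 4 of the deepest mixed acceptors, chosen as those with each form at 10% or more in every library, favoured the long form. Their control and SAM68 means were 77.1% ± 2.33 and 74.6% ± 3.27 (SD, n = 3 libraries each, as in all means below) for SDCBP, and 84.7% ± 2.82 and 86.5% ± 0.556 for TOMM40, the import channel of the outer mitochondrial membrane. They were 81.8% ± 2.09 and 80.3% ± 1.31 for the RNA-binding protein DAZAP1, and 87.2% ± 3.00 and 87.5% ± 1.54 for MRPS22, a protein of the small mitochondrial ribosomal subunit. In all, 268 of the 640 events kept each form at 10% or more in every library.

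At the other acceptors shown above, a single form prevailed or the split was uneven. SNF8, a subunit of the ESCRT-II sorting complex, had 95.6% ± 1.51 in the control group and 97.5% ± 0.727 in the SAM68 group. The RNA helicase gene DDX3X had 98.0% ± 0.416 and 97.5% ± 0.679 at its TAGAAG acceptor but 69.0% ± 1.798 and 67.3% ± 1.71 at a TAGTAG acceptor further downstream. SF3B2 encodes a subunit of the SF3b complex, which itself binds the branch point region, and had 91.9% ± 2.24 and 94.0% ± 0.252. H2AFY, the gene of the histone variant macroH2A1, had 39.3% ± 4.48 and 38.5% ± 4.404. For HIF1A, the oxygen-regulated transcription factor, the long form made up 25.03%, 24.2% and 28.9% across the control libraries and 21.5%, 19.5% and 24.1% across the SAM68 libraries. The highest library in the SAM68 group lay just below the lowest of the control group, and the difference of -4.35 points had an adjusted p of 0.672 in the quasi-binomial test described below.

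Tandem acceptors 3 nt apart carried both forms more often than A3SS events with other distances. In 423 of 640 events (66.1%) the mean PSI lay from 10% to 90%, against 418 of 1792 events (23.3%) for acceptors 4 to 50 nt apart and 431 of 1935 events (22.3%) for acceptors over 50 nt apart. The median PSI per library ran from 65.3% to 66.4% at 3 nt, from 78.7% to 82.5% at 4 to 50 nt and from 88.5% to 89.4% over 50 nt, so the ranges of the 6 libraries did not overlap between these classes. The median of the mean reads was 62.8 at 3 nt, 83.8 at 4 to 50 nt and 80.8 over 50 nt. The spread between libraries was also larger at 3 nt, with a median SD of 4.77 points in the control group and 5.07 in the SAM68 group, against 1.88 and 1.94 at 4 to 50 nt.

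In GENCODE 44, both sites of 627 of the 640 events start an annotated exon. By the canonical transcript, or by other transcripts where it holds neither form, 574 events lie in coding sequence, 50 in a 5′ UTR, 6 in a 3′ UTR and 6 in noncoding transcripts, and 4 were not found. The form annotated in the canonical transcript was the long form in 412 events, with a median PSI of 81.1%, and the short form in 195 events, with a median of 20.3%. In 362 of the 412 and in 165 of the 195 the canonical form was the more used in these cells.

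The added triplet falls within or across codons. Of the coding NAGNAG events, 207 add it as a whole codon, and 242 and 114 split it behind the first and the second base of a codon. As a whole codon the triplet adds a glutamine (CAG) in 161 events, a lysine (AAG) in 33, a glutamate (GAG) in 7 and a stop codon (TAG) in 6. The 6 acceptors whose long form adds a stop codon are shown because most of their levels were below the median of their hexamer.
ERCC2, chr19:45368740-45368769, minus strand: ccccctgccccccaactttgGAGTAGgtga
TIMM44, chr19:7934235-7934264, minus strand: ccccctctctgtgtctgtctCAGTAGagcc
ADAM15, chr1:155055764-155055793, plus strand: ctgataattcttcttgtccaTAGTAGaggc
DPH7, chr9:137574840-137574869, minus strand: tgatggagtttcttcttctcCAGTAGaaga
MKLN1, chr7:131399215-131399244, plus strand: tccatacttactctgtgttcTAGTAGtacc
ADAMTSL5, chr19:1510727-1510756, minus strand: gaccgtgcctctgtctccccAAGTAGggtc
Of these 6, 5 were under 10%, as were 4 of the 45 coding events in which TAG is split between codons. The median PSI was 4.39% for the 6, against 73.8% for the 45. No such gap was seen for the other triplets, since CAG had medians of 60.1%, 56.9% and 58.6% as a whole codon and behind the first and second base, and AAG had 95.01%, 89.96% and 92.1%.

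In ERCC2, the helicase of transcription factor TFIIH, the long form held 0.904%, 0.215% and 1.90% across the control libraries and 0.426%, 1.08% and 0.239% across the SAM68 libraries. TIMM44, which tethers the import motor of the inner mitochondrial membrane, had 2.52%, 5.31% and 4.27% across the control libraries and 3.19%, 2.17% and 2.82% across the SAM68 libraries, while the CAGTAG events together had a median of 80.3%. The TAGTAG acceptors of ADAM15, a membrane metalloprotease, and MKLN1, a subunit of the CTLH ubiquitin ligase complex, had 0.788% and 5.39% over both groups, where the median of that hexamer was 76.8%. DPH7, an enzyme of diphthamide synthesis, had 7.77%. The exception was ADAMTSL5 at 49.2%, read at a mean of 23.5 reads, where AAGTAG events had a median of 26.0%. In all 6 genes the canonical transcript holds the short form. The ERCC2 hexamer GAGTAG is itself of low use, as the only other acceptor with it had 0.515%, so that for ERCC2 the letters and the frame cannot be told apart. With TAG split between codons, BRCC3 (CAGTAG), GRAMD2B (TAGTAG) and CCDC125 (AAGTAG) were also low, at 5.40%, 6.08% and 8.63%. The 6 stop-adding acceptors were set apart after the values by frame had been seen, and whether transcripts with the added stop were spliced less or were less stable was not tested.

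**Figure D1:**
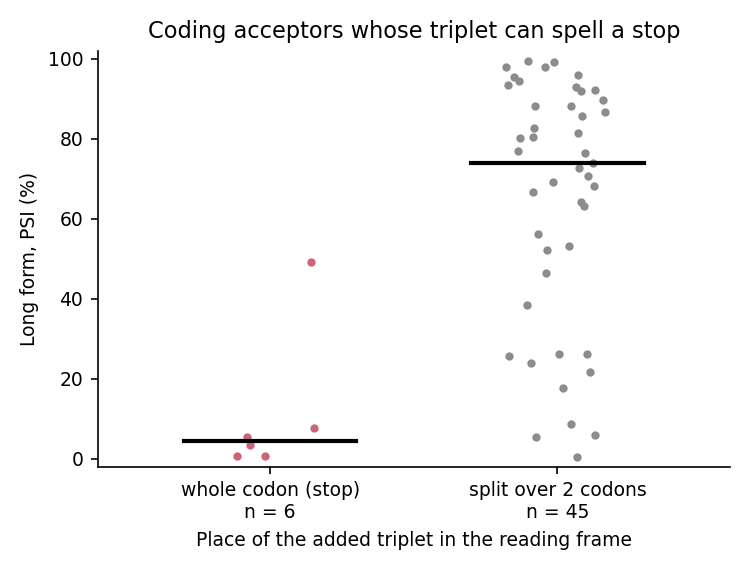
PSI of the long form (percent, vertical axis) for the coding acceptors whose added triplet is TAG, split by whether the triplet forms a whole codon (6 events) or is divided between codons (45 events). Each point is 1 event averaged over both groups and the line is the median, 4.39% on the left and 73.8% on the right.

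The 10 acceptors without the NAGNAG letters were mostly of low use at a site that lacks an AG. In CNBP both sites lack an AG in hg38 (TTGTTG). Its long form held 4.53% ± 0.563 in the control group and 4.43% ± 0.190 in the SAM68 group. The 10 also include a TG acceptor in GNAS, which encodes the stimulatory G protein subunit alpha, an acceptor of CPNE1 (copine 1) whose downstream site follows AA, and the AT-AC intron of GMFB (glia maturation factor beta).
GNAS, chr20:58903505-58903534, plus strand: ttcttttcttttcaatcccaCTGCAGtgag
CPNE1, chr20:35626797-35626826, minus strand: gacatgaatgggcttgtcccCAGCAAtact
GMFB, chr14:54480953-54480982, minus strand: tttagtttctttaacttgagAAAAACcttc
In GNAS the long form, which uses the TG, held 2.05% ± 0.492 in the control group and 2.44% ± 0.299 in the SAM68 group. In CPNE1 the sites were both in use, with the long form at 59.3% ± 2.50 and 63.0% ± 1.62. In GMFB, where the donor is AT, the long form had 2 reads in all against 653 of the short form. Of the 640 donors, 630 were GT, 9 GC and 1 AT.

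The overexpressed gene was checked first. KHDRBS1 had 312, 329 and 317 reads per 1000000 (rpm) across the control libraries and 1233, 1262 and 1279 across the SAM68 libraries, counted at its most deeply read event and scaled to the sum of such reads over all genes. The log2 difference was 1.98 ± 0.0474 (SE, adjusted p = 7.57e-22, limma with Benjamini-Hochberg adjustment). The keratin genes KRT8 and KRT18, markers of epithelial cells, were read in all libraries, while NAPSA, a marker of lung epithelium, was at 0 to 0.919 rpm. KRT8 was uneven, at 521 rpm in the first control library and 230 to 253 rpm in the others. KRT19, EPCAM, CDH1, NKX2-1, SFTPB and the markers of other cell types, PTPRC, PECAM1, COL1A1 and COL3A1, have no event in the tables, so the cell type could be checked only in part. The 640 events held 70951 to 83561 junction reads per library, out of 584643 to 687499 in the A3SS table.

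No tandem acceptor passed the test between SAM68 and control cells. The long and short reads of each library were compared in a quasi-binomial model over the 4391 A3SS events that averaged 10 reads or more. A call needed an adjusted p under 0.05 together with a PSI difference of at least 10 points. None of the 640 events was called, as none of all A3SS events was (0%). At an unadjusted p under 0.05 there were 46 of 640 (7.19%), against 6.99% of all A3SS events. Of the 46, the long form was higher in the SAM68 group in 20 and lower in 26, where 3.48% and 3.51% of all A3SS events were. With limma on the logit of PSI the counts were 0 and 23. A likelihood ratio test on pooled counts, which ignores the spread between libraries, called 25 (3.91%, against 2.07% of all A3SS events), with the long form higher in 11 and lower in 14. The smallest exact permutation p that 3 against 3 libraries allow is 0.1.

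The levels were close between the groups as a whole. The mean PSI over the 640 events was 59.97%, 59.5% and 59.7% across the control libraries and 59.9%, 59.6% and 60.03% across the SAM68 libraries. The long form was higher in the SAM68 group in 306 events and lower in 333, and the median difference was -0.27 points. In 398 events (62.2%) the means differed by less than 5 points. Every SAM68 library lay above every control library in 32 events (5%, against 3.89% of all A3SS events) and below in 24 (3.75%, against 3.51%). The size of the differences went with depth. Of the 160 events with a mean of 10 to 30 reads, 65 differed by at least 10 points, and the median SD of the control libraries was 11.7 points. Of the 63 events with 300 reads or more, none differed by 10 points, the largest difference was 4.75 points and the median SD was 1.64 points.

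The 8 events with the smallest unadjusted p are given with their libraries, and none passed the adjustment. The sequences of the 7 in coding regions are shown so that their acceptors can be compared.
OTUD4, chr4:145155680-145155709, minus strand: ttggacttcctgactttgttTAGCAGctga
CBLL1, chr7:107753388-107753417, plus strand: gggcaatactttttttttctCAGAAGgatt
APBB2, chr4:40825964-40825993, minus strand: tgtgttgcttttgttccctgTAGTAGattt
CALD1, chr7:134958186-134958215, plus strand: tatgtatgtgtttactttttTAGCAGtggt
EWSR1, chr22:29291539-29291568, plus strand: catttcttcgtttatcccccCAGCAGcgct
TTLL5, chr14:75792890-75792919, plus strand: gtgaaaacttttctccgtttTAGCAGgatc
ZC3H14, chr14:88609689-88609718, plus strand: agtcctggtttttattttgtTAGCAGttgc
Of these 7, 4 share the hexamer TAGCAG, which 118 of all 640 events have.

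OTUD4 encodes a deubiquitinating enzyme, and the triplet adds a glutamine codon to its exon 9. The long form held 73.2%, 89.9% and 77.1% across the control libraries and 100% in every SAM68 library, where no short read was counted among 95, which allows a share of up to 3.16% (3 reads, counting error only). The groups did not overlap. The difference was 19.9 points, with an unadjusted p of 0.000281 and an adjusted p of 0.294 in the quasi-binomial test. The pooled shares differed by 10.3 to 29.1 points (95% interval of that model). The interval takes no error from the SAM68 group, whose share was 100%, and is thus too narrow.

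CBLL1 encodes the ubiquitin ligase Hakai. The long form held 98.4%, 100% and 100% across the control libraries and 91.9%, 83.1% and 86.4% across the SAM68 libraries. The short form had 1 read among 184 in the control group and was read in every SAM68 library. The difference was -12.3 points (adjusted p = 0.328, quasi-binomial test). APBB2, an adaptor that binds the amyloid precursor protein, had 99.1%, 98.8% and 97.1% across the control libraries and 88.5%, 94.8% and 88.5% across the SAM68 libraries. Its difference of -7.73 points (adjusted p = 0.335, quasi-binomial test) is under the limit of 10 points. CALD1 encodes caldesmon, which binds actin and tropomyosin, and had 97.6%, 95.9% and 100% across the control libraries and 87.1%, 69.4% and 77.7% across the SAM68 libraries, a difference of -19.7 points (adjusted p = 0.335, quasi-binomial test). In all 3 events the SAM68 libraries lay below the control libraries without overlap. When the same CBLL1 acceptor was joined to another upstream exon, at a mean of 10.7 reads, the groups overlapped. There the long form held 83.1%, 100% and 100% across the control libraries and 77.5%, 100% and 66.3% across the SAM68 libraries.

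EWSR1 encodes an RNA-binding protein of the FET family and has a pair of tandem acceptors among the events. At the acceptor of exon 9 the long form held 55.2%, 46.5% and 50.8% across the control libraries and 42.7%, 37.1% and 27.7% across the SAM68 libraries. The groups did not overlap, and the difference was -15.0 points (adjusted p = 0.498, quasi-binomial test). At the acceptor of exon 4, which has the hexamer GAGCAG and a mean of 794 reads, the long form was at 3.86% ± 0.945 and 3.53% ± 1.24.

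TTLL5, a tubulin polyglutamylase, had 46.8%, 57.3% and 24.7% of the long form across the control libraries and 18.2%, 23.5% and 17.0% across the SAM68 libraries, without overlap but with the lowest control library close to the SAM68 libraries (difference -23.4 points, adjusted p = 0.604, quasi-binomial test). ZC3H14, a zinc finger protein that binds poly(A), had 61.0%, 70.3% and 77.9% across the control libraries and 53.5%, 59.9% and 61.2% across the SAM68 libraries. These groups overlap, and the difference was -11.6 points (adjusted p = 0.657, quasi-binomial test). It was -7.48 points, under the limit of 10, without the third control library and -15.9 points without the first.

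ACSL4, a synthetase of long-chain acyl-CoA, had an acceptor in its 5′ UTR with the hexamer AAGAAG and a mean of 14.0 reads. The long form held 100%, 45.5% and 0% across the control libraries and 100% in every SAM68 library, at 31 reads in all, which allow up to 9.68% of the short form (adjusted p = 0.498, quasi-binomial test). The control libraries thus covered the whole range. The third control library had 14 short reads and no long read, while the first had 15 long reads and no short read. In 38 of the 640 events a form was at 0 in 1 library and at 10 reads or more in another of the same group, and 4 of the 46 events at an unadjusted p under 0.05 were among them. Of the 602 other events, 42 were at an unadjusted p under 0.05. When the same ACSL4 acceptor was joined to another upstream exon, at a mean of 129 reads, the long form held 83.3%, 79.5% and 76.5% across the control libraries and 70.2%, 70.5% and 73.9% across the SAM68 libraries. There the SAM68 libraries were the lower ones, without overlap, at a difference of -8.23 points (unadjusted p = 0.0605, quasi-binomial test), opposite in sign to the 51.5 points of the event at 14.0 reads.

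**Figure D2:**
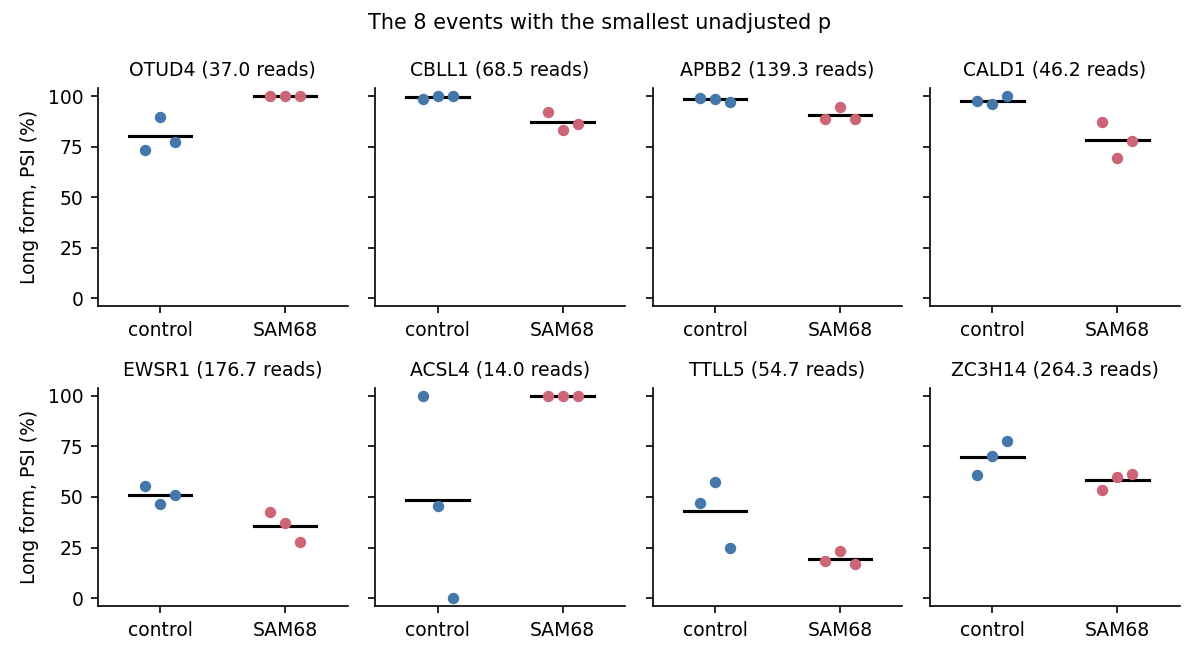
PSI of the long form (percent, vertical axis) in each library for the 8 events with the smallest unadjusted p, with the mean junction reads in each title. Points are libraries, blue for control and red for SAM68, and bars are group means. The groups do not overlap for OTUD4, CBLL1, APBB2, CALD1, EWSR1 and TTLL5 and overlap for ZC3H14 and ACSL4.

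By function, the events of each gene list were counted, and 0 events were called in each list, as in the whole class. Among 43 events in 34 genes of RNA processing, 6 were at an unadjusted p under 0.05 (ZC3H14, EWSR1, CNOT3, RBM42, PUF60 and TRA2A), 2 higher and 4 lower, with a median difference of -0.52 points against -0.05 over all A3SS events. Among 39 events in 30 genes of chromatin and transcription there were 3 (KDM1B, TAF1C and MED12) and a median of -0.98 points. The 18 events of ubiquitin and proteasome genes held 2 (CBLL1 and OTUD4), and the 14 of cytoskeleton and adhesion genes held CALD1. The 9 events of metabolism and mitochondria held ACSL4, and the 25 of cell cycle and DNA repair held none, with medians of -1.31 and 1.12 points. Over all A3SS events, 6.99% were at that p.

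The deepest events of these lists did not pass the test, and their differences were unequal in size. CHD4, the ATPase of the NuRD complex, had the long form at 98.8% ± 0.633 and 98.9% ± 1.04 at its deepest acceptor. The transcription factor gene TCF3 had 90.04% ± 1.81 and 89.1% ± 0.923. PSMD9, a chaperone of proteasome assembly, had 92.2% ± 1.64 and 94.96% ± 1.78, and FBXO27, a substrate receptor of SCF ubiquitin ligases, had 98.7% ± 1.30 and 96.2% ± 2.64. The difference was larger for UBAP2L, a stress granule protein, at 67.6% ± 4.78 and 74.1% ± 4.46. Among motor proteins, the dynein chain DYNC1I2 had 91.4% ± 2.73 and 94.7% ± 0.602, the kinesin KIF23 99.2% ± 0.733 and 99.8% ± 0.391, and the myosin MYO9B 52.3% ± 6.03 and 45.5% ± 5.96. CDKN3, a phosphatase of cyclin-dependent kinases, had 97.5% ± 0.353 and 98.6% ± 1.32. In the quasi-binomial test the adjusted p-values of these genes ran from 0.657 to 0.954.

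Of the genes in which tandem acceptors are long known, GNAS was read at a mean of 834.5 reads, with the values given above. ING4, a subunit of a histone acetyltransferase complex, had 49.6%, 41.7% and 46.2% of the long form across the control libraries and 36.6%, 45.5% and 50.4% across the SAM68 libraries. SMARCA4, the ATPase of SWI/SNF remodelers, had 73.2%, 66.3% and 68.1% across the control libraries and 62.6%, 29.3% and 86.8% across the SAM68 libraries. The spread of SMARCA4 in the SAM68 group covers all its control libraries. IGF1R, the receptor of insulin-like growth factor, had 61.1% ± 17.1 and 53.4% ± 19.6 at a mean of 19.5 reads. BRCA1, of homologous recombination, had 66.7% ± 4.24 and 81.8% ± 14.7 at the acceptor of exon 13 and 71.4% ± 13.5 and 88.5% ± 9.09 at that of exon 7. Of the 7 events of this list none was at an unadjusted p under 0.05, and the adjusted p-values of the BRCA1 events were both 0.657 (quasi-binomial test).

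At 22 acceptors the tandem pair was joined to more than 1 upstream exon, as 48 of the 640 events, and for some the choice between the paired sites went with the upstream exon. PSI was compared between the 2 deepest upstream exons within each library. In PAM, the enzyme that amidates peptide hormones, the long form at chr5:103028182 held 32.6%, 23.7% and 28.9% across the control libraries and 33.7%, 30.6% and 25.9% across the SAM68 libraries when joined to the exon that ends at 103025334. Joined to the exon that ends at 103019843, it held 67.3%, 65.4% and 76.3% across the control libraries and 57.7%, 59.4% and 54.3% across the SAM68 libraries. The latter was higher in 6 of 6 libraries, by 34.2 ± 8.90 points (SD), and the gap was smaller in every SAM68 library than in every control library. With this exon the SAM68 libraries lay below the control libraries without overlap, at a difference of -12.5 points (unadjusted p = 0.0168 and adjusted p = 0.657, quasi-binomial test). The difference in the gap was seen after the values and was not tested.

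SHKBP1, which binds the endocytic adaptor CIN85, had 92.9% ± 1.48 (SD, n = 6 libraries) with its deeper upstream exon and 47.7% ± 10.6 with the other. SLC29A1, a nucleoside transporter, had 6.70% ± 1.61 and 28.0% ± 9.96, and the cell cycle transcription factor gene FOXM1 had 19.8% ± 4.24 and 1.10% ± 2.71. The latter rests on the first control library, at 6.63%, and no long read was counted in the other 5. ATP13A2, a P5-type ATPase of lysosomes, had 91.8% ± 8.40 and 73.8% ± 6.14. In these 5 genes every library differed in the same direction. The exact permutation p by flipping signs over 6 libraries was 0.0312, the smallest that it allows, and 0.138 after Benjamini-Hochberg adjustment over the 22 acceptors, of which 0 were under 0.05. In the other 17 at least 1 library differed the other way or not at all, and the median absolute difference over all 22 was 7.12 points. These pairs were set apart after seeing the data.
PAM, chr5:103028159-103028188, plus strand: tgaaatgtgccatcttttttTAGCAGattc
SHKBP1, chr19:40590707-40590736, plus strand: gaccctgcttccgtgcccccCAGCAGgtgg
SLC29A1, chr6:44227237-44227266, plus strand: cctcacactgttcctgccccCAGCAGgccc
FOXM1, chr12:2864749-2864778, minus strand: tttctctccccatctgccacAAGCAGcagc
ATP13A2, chr1:17004405-17004434, minus strand: atcctctcctctctcccaccCAGAAGcggg
The sequence around the acceptor is identical for both upstream exons, so the letters shown are the same for both levels.

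GNAS showed the widest such gap, though its second event was left out of the tests for its regrouped counts. The TG acceptor at chr20:58903528 was at 2.05% ± 0.492 and 2.44% ± 0.299 with the upstream exon that ends at 58898985. With the exon that ends at 58895684, the deposited levels of the long form were 60.5%, 65.0% and 65.1% across the control libraries and 62.1%, 63.1% and 60.8% across the SAM68 libraries. All libraries thus differed between the upstream exons and the groups overlapped within each.

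Several genes carried more than 1 tandem acceptor, with 42 genes holding 2 and 2 genes (SF3B2 and ARHGEF10) holding 3. In SF3B2 the long form was at 91.9% ± 2.24 and 94.0% ± 0.252 at the TAGTAG acceptor of exon 7, at 98.6% ± 0.617 and 99.4% ± 0.602 at the CAGAAG acceptor of exon 20, and at 89.7% ± 2.27 and 92.6% ± 0.278 at the AAGCAG acceptor of exon 5. The SAM68 means of SF3B2 were the higher at each of the 3, with adjusted p-values of 0.657, 0.664 and 0.657 (quasi-binomial test). At exon 5 the SAM68 libraries lay above the control libraries without overlap, as in 5% of the 640 events. The groups overlapped at exons 7 and 20. EWSR1 and DDX3X, described above, were the deepest other examples.

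The introns before the tandem acceptors had a median length of 1400 nt, against 948 nt for acceptors 4 to 50 nt apart. In the 200 nt upstream of the hexamer, read only on the strand of the gene, the letters TAAA, a core of SAM68 binding sites in RNA (UAAA), were present in 359 of 640 events (56.1%) and in 49.1% of the 3751 other tested A3SS events. That window runs past the start of shorter introns. With introns over 200 nt alone the letters were present in 330 of 550 tandem events (60%) and in 1675 of 3021 others (55.4%). Among the 46 events at an unadjusted p under 0.05 they were present in 25 (54.3%). A match is a description and does not show binding.

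The genes of factors that act at 3' splice sites were not called. Of 16 in the list, 15 had enough reads, 0 were called at an adjusted p under 0.05 and a 2-fold difference (0.0493% of 10145 genes were) and 1, PRPF18, was at an unadjusted p under 0.05 (12.1% of all genes were). PRPF18, a factor of the second catalytic step, had 13.5, 13.2 and 11.6 rpm across the control libraries and 8.06, 7.91 and 11.4 rpm across the SAM68 libraries (log2 difference -0.48, adjusted p = 0.390, limma). The groups lay close, with the highest SAM68 library just below the lowest control library. U2AF2, the large U2AF subunit, had 200 ± 14.4 and 210 ± 9.32 rpm, SF3B1 150 ± 6.08 and 138 ± 13.8 rpm, and SLU7, a second-step factor that guides the choice of the AG, 32.4 ± 4.03 and 32.0 ± 6.11 rpm. The branch point protein SF1 had 161 ± 13.4 and 163 ± 4.49 rpm, PRPF8 123 ± 3.62 and 130 ± 15.0 rpm, PUF60 197 ± 11.7 and 211 ± 3.32 rpm and ZRSR2 8.01 ± 1.36 and 8.81 ± 2.54 rpm.

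U2AF1, the small subunit that contacts the AG, could not be read reliably. It had 87.4, 20.2 and 1.51 rpm across the control libraries and 208, 0.368 and 0.184 rpm across the SAM68 libraries. The libraries of each group differed by more than the groups did. The gene has a near-identical copy, U2AF1L5, and a division of reads between these was not tested. Without SAM68 replicate 1 it was called lower, with a log2 difference of -4.32 (adjusted p = 0.0160, limma), and with all libraries the adjusted p was 0.633. The other tested factors were the second-step and late spliceosomal proteins DHX38, DHX8, CDC40, FAM32A, CACTIN and SDE2, whose log2 differences ran from -0.21 to -0.05 without an adjusted p under 0.05. PUF60 itself holds a tandem acceptor joined to a pair of upstream exons, at 100% ± 0 and 92.8% ± 6.80 of the long form in one and 100% ± 0 and 98.1% ± 3.35 in the other.

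The lowest mean that entered was 10.2 reads, in MTERF4, whose long form was at 91.6% in the control group and 75.1% in the SAM68 group, followed by MAP4K5 with 10.3 reads at 0% (0 of 28 reads, which allow up to 10.7%) and 6.59%. Just below the limit were WDR90 with 9.83 reads at 80.3% and 29.4% and ATXN2L with 9.67 reads at 12.8% and 18.9%. Single reads move the PSI of such events by several points.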

How the data were processed

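The authors sequenced 3 control and 3 SAM68 libraries, aligned the reads and listed splicing events with rMATS. Per the submitters' processing notes the tools were CASAVA 1.4, fastp 0.20.0 and HISAT2 2.1.0 with GRCh38. The rMATS version is not given in the sources used here. The deposited A3SS table holds raw junction read counts of each form as lists of 3 per group, levels, effective lengths (132 and 130 for these events), and the p-value, FDR and level difference of the authors' own test, which were not used. The lists carry no replicate numbers, so libraries are numbered by list position. Of 5692 rows (19 blank lines apart), 275 had regrouped digits and were left out, 16 of them at 3 nt. In the other rows the counts gave the listed levels within 0.00051.

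A quasi-binomial model was fitted to the 4391 A3SS events that averaged 10 reads or more, with dispersions moderated by squeezeVar of limma 3.58.1 (R 4.3.3; prior degrees of freedom 19.2) and not below 1, an F test and Benjamini-Hochberg adjustment. PSI, in percent, was averaged over libraries, and intervals are of the fitted shares. Gene reads were tested with limma (trend) on log2 (rpm + 0.5), rpm being scaled here and not by the authors. Sequences come from hg38 and annotation from GENCODE 44. The 3 samples per group are biological replicates by the study's methods. The quasi-binomial p-values rest on the spread between these, moderated toward that of all A3SS events. Those of the likelihood ratio test ignore it. The skipped exon table held from 16951876 to 19737729 junction reads for a library. Reads carry no molecular identifiers, so errors of counting are a lower limit.

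The acceptors, gene lists and tests were chosen with earlier results of these data known, and misassigned symbols were removed from the lists after matching. Named were called events, the 8 with the smallest p and the 8 deepest mixed events (1 per gene), the deepest of each common hexamer, the known tandem acceptor genes, up to 3 of each other list by depth, the events next to the read limit, the 3' splice site factors and examples of genes with several acceptors. Other genes were named after their values were seen. A few results that these rules name are not reported here.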

Additional observations from a re-analysis of the deposited data

How the results depend on the processing

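With all 6 libraries and the main test 0 tandem events were called, and 46 were at an unadjusted p under 0.05. A likelihood ratio test of the pooled counts gave 25 calls and put 153 at that p. At an unadjusted p under 0.05 there were 18 with unmoderated dispersions, 23 with limma on logit PSI and 22 of 380 at a mean of at least 50 reads. All other alternatives (another read minimum, no effective lengths, another limit on the difference, sums over upstream exons, and, both chosen after seeing the data, floored dispersions and events without erratic zeros) kept 0 calls and 35 to 56 such events, and leaving out each library kept 0 calls and 37 to 54. The difference between the CAGAAG and AAGCAG medians, 64.4 points, ran from 63.5 to 68.3 points when a library was left out. No 3' splice site factor was called with any pseudocount or minimum, and 0 to 1 when a library was left out (U2AF1, without SAM68 replicate 1). Of the values of single genes and hexamers, 189 kept their side of the threshold or their level, 11 hexamer medians moved beyond their spread between libraries and 7 genes passed the likelihood ratio test. No paired analysis was possible because the lists carry no replicate numbers. Depth limits the comparison, since events under 30 reads had a median SD of 11.7 points.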

Other observations

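The 16 tandem acceptors left out for regrouped counts, in 15 genes, have deposited levels in the table. The level of the long form differed between the groups by -1.53 to 1.33 points over these rows, and in 1 of them, CAP1, the SAM68 libraries lay above the control libraries without overlap, as did 3.89% of all tested A3SS events. CAP1, an actin monomer binding protein, was at 90.3% ± 0.361 in the control group and 91.3% ± 0.404 in the SAM68 group, a difference of 0.967 points (exact permutation p = 0.1, the smallest it can give). PCBP2, a poly(C)-binding protein, held 80.8% ± 1.63 and 80.9% ± 2.098, HNRNPC 96.1% ± 0.551 and 96.4% ± 0.404, and RBM8A, of the exon junction complex, 86.9% ± 3.30 and 87.1% ± 1.74. PTMA (prothymosin alpha), the only GAGGAG acceptor, held 9% ± 0.954 in the control group and 9% ± 0.557 in the SAM68 group. The ribosomal protein gene RPS16 and the enolase gene ENO1, both with CAGAAG, held 99.5% ± 0.0577 and 99.4% ± 0, and 99.3% ± 0.231 and 99.3% ± 0.153.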
